A study of Mus musculus with 12 samples.

Results

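Liver RNA holds many transcripts that a read assembler can build but that no gene model names. In the mouse livers studied here, 66468 loci were assembled, and 7612 of them carried no Ensembl gene identifier. The loci described below are the 4172 of these (6.28% of all loci) whose listed span was 1000 bases or longer, and they are called unannotated loci. The length rule used no expression value. The 407 unannotated loci of 1000 to 1099 bases had a median FA level of 0.258, and the 433 shorter loci of 900 to 999 bases one of 0.233, in the unit explained below.

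The livers came from 17-week-old wild-type C57BL/6 mice on the diet labelled NCD, a control diet, with 4 libraries in each of 3 groups. AL mice ate ad libitum. FA mice had no food for 16 h, and RF mice had no food for 16 h and then ate freely for 6 h. The methods of the study give the mice as males on the C57BL/6N background, and the sources used here name no sampling time, so feeding state and time of day cannot be told apart. Each group is represented by 1 pooled value per locus, in FPKM, fragments per kilobase of transcript scaled by mapped fragments. The spread between the 4 libraries of a group and their depth are therefore unknown, no SD can be given, and no difference below has a replicate check or a p-value.

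A long noncoding RNA (lncRNA) is a transcript that is not read into protein. Many lncRNA genes start beside a protein-coding gene, and some act on the transcription of their neighbours. RNA polymerase also reads past gene ends and from enhancers, which gives transcripts without a gene model of their own. In the liver, a fast turns on gluconeogenesis and fatty acid oxidation and turns off sterol and fatty acid synthesis, and feeding turns this round.

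The label of the loci held for all but 9 of them, which carried a gene symbol without an Ensembl identifier, among them Slc10a1, the bile acid uptake transporter of hepatocytes. The span given for a locus is that of the read bundle it was tested in, and 683 unannotated loci shared it with other loci, 356 of them with an Ensembl gene. For those 356 the position within the span is not known. The other 3816 had a median span of 1843 bases, with 1286 to 3376 bases for the middle range from the 25 to the 75 percentile. Strand could be read only from the numbering of the loci, which put 2121 on the plus strand, 2042 on the minus strand and 9 on neither. Among Ensembl loci with an FPKM above 0, this numbering placed 36.9% opposite to the strand of their gene, so strand is given no weight.

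Later annotation named some of the unannotated loci. Of the 3816 with a usable position, 682 overlapped a gene of GENCODE release M21, and for 446 of these every overlapped gene had an Ensembl number above the highest in the deposited tables. RefSeq genes overlapped 1370 (35.9%), and 896 of these lay over a RefSeq lncRNA. The remaining 2225 (58.3%) overlapped no gene of either source. Where RefSeq gave a start site for an overlapped lncRNA, an edge of the assembled span lay within 200 bases of it in 113 of 698 loci (16.2%), in 40 of the 94 that reached an FPKM of 1 (42.6%), and in 10 of 28 that differed between FA and AL by the rule below. In 28 of those 40 the locus was numbered on the strand opposite to the RefSeq gene.

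The sequences around 6 RefSeq start sites are shown, because they lie at the edge of or inside unannotated loci that are named below for their differences between feeding states. Each runs 5′ to 3′ from 250 bases before the start to 50 bases after it, from RefSeq on build GRCm38.p6. Capitals mark matches, on either strand, to 5 motifs that were searched, namely TGTTTAC (forkhead factors), TGACGTCA (the cAMP response element), TCACNCCAC (a sterol regulatory element), CACGTG (the E-box) and AGGTCA (the core of nuclear receptor sites). The first sequence belongs to the locus with the lowest ratio of FA to AL by the rule below, and the second to one at 19.4 in FA. The next pair belongs to the loci beside Pck1, the fifth to one low in AL and the last to a locus that stayed low in RF.
Gm33459 (chr9:74528637-74528936, minus strand): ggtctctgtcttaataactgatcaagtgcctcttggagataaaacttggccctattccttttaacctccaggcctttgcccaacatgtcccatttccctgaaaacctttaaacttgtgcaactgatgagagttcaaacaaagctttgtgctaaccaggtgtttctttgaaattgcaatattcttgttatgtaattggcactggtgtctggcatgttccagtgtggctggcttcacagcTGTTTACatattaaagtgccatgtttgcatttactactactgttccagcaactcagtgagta
Gm31583 (chr16:24090016-24090315, minus strand): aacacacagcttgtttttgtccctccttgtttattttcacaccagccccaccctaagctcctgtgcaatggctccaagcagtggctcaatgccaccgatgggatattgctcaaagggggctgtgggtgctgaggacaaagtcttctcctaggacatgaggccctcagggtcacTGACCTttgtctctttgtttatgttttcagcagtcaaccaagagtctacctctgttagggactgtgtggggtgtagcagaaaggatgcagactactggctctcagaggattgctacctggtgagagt
Gm36691 (chr2:173148083-173148382, minus strand): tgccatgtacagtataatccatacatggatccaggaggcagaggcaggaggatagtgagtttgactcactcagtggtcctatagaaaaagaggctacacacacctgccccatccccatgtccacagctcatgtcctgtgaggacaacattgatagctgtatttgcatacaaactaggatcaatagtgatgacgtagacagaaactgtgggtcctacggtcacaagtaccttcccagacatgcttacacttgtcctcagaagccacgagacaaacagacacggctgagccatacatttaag
Gm36749 (chr2:173142555-173142854, plus strand): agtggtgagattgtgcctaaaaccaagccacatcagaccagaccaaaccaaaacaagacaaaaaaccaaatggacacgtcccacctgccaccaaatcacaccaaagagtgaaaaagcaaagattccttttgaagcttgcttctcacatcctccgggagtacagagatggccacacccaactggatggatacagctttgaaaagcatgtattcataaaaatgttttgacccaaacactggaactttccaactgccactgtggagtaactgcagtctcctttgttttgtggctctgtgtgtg
Gm33162 (chr3:101517056-101517355, minus strand): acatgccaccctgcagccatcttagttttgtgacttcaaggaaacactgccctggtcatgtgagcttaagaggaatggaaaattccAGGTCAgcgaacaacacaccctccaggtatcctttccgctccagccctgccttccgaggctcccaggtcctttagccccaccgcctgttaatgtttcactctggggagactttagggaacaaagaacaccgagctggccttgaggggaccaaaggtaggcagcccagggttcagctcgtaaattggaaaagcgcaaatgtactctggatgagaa
Gm34654 (chr9:77851855-77852154, minus strand): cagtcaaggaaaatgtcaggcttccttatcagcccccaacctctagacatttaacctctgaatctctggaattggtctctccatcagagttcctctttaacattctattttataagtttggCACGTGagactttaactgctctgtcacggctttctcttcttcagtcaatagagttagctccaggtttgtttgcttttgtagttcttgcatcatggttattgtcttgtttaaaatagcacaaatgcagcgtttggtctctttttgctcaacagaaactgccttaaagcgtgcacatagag

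The forkhead motif was found in the Gm33459 sequence, from 12 bases before its start, and 3.65% of 32851 RefSeq start regions of the same length hold it. The E-box was found in Gm34654, and 7.15% of all regions hold it. AGGTCA or its reverse complement was found in Gm31583 and Gm33162, and 16.3% of all regions hold it. The cAMP response element, present in 1.79% of all regions, and the sterol regulatory element, present in 1.24%, were found in 0 of the 6 sequences. A match describes letters only and is no binding site.

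Most unannotated loci were measured at low levels. Their median FPKM was 0.313 in AL, 0.341 in FA and 0.311 in RF, the last over the 4070 loci (97.6%) whose FA values matched within 10% between the deposited tables. This condition is needed because the table of RF and FA gives 1 transcript per locus. In 59 further loci the transcript had less than the locus, and 43 were listed at 0 in FA in both tables. The 95 percentile was 1.21 in AL, 1.29 in FA and 1.14 in RF. An FPKM of 1 or more was reached by 274 unannotated loci in AL (6.57%), by 298 in FA (7.14%) and by 247 of the matching loci in RF (6.07%). Of 58856 Ensembl loci, 26.8% reached it in FA and 27.0% in AL. The plot of levels shows most unannotated loci between 0.1 and 1, and the curves of the 3 states close together.

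**Figure D1:**
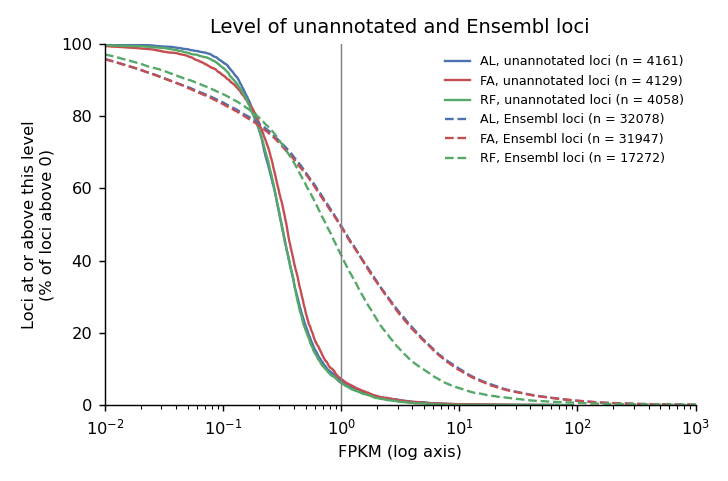
Share of loci above 0 that reach at least a given FPKM (log axis), for unannotated loci (solid lines) and Ensembl loci (dashed lines) in AL, FA and RF; RF lines hold matching loci only. The grey line marks an FPKM of 1, which 7.14% of all unannotated loci reached in FA and 6.57% in AL.

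Cell type markers were checked for FA and AL in the same tables. For RF, sums exist over matching loci only and are not set beside them. Of 8 hepatocyte markers, 7 were measured, with a summed FPKM of 7455 in FA and 6533 in AL, while Alb, the albumin gene, was listed at 0 in both groups. The 5 Kupffer cell markers summed to 19.3 in FA and 22.9 in AL. The 5 endothelial markers summed to 30.3 in FA and 34.4 in AL, and the 5 stellate cell markers to 52.9 in FA and 59.3 in AL. The 3 erythroid markers summed to 562 in FA and 758 in AL. The 4 cholangiocyte markers summed to 2.21 in FA and 2.93 in AL, and the 3 lymphocyte markers to 0.488 in FA and 0.4997 in AL. Of 3 pancreatic markers, Prss1 and Cpa1 were listed at 0, and the summed value, all from Cela1, was 29.6 in FA and 60.4 in AL. The part of these cells in the unannotated loci was not tested.

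The 5 unannotated loci with the highest mean FPKM lay in spans shared with Ensembl genes. XLOC_032292 had an FPKM of 74.9 in AL, 30.3 in FA and 91.5 in RF, in a span of 12 loci that holds Sord, the sorbitol dehydrogenase gene. It was the highest of all in RF and lower in FA than in the other states, with a log2 ratio of -1.30 for FA to AL. XLOC_012807, which carries the symbol Slc10a1, had 66.8 in FA and 63.8 in AL, and its transcript in the other table did not match, so no RF value is set beside them. XLOC_012990 had 58.6 in FA and 70.4 in AL, in a span with Cpsf2, a subunit of the mRNA 3′ end cleavage complex. XLOC_031571 had 31.1 in FA and 21.3 in AL, in a span with Hnrnpa3, an RNA-binding protein gene. None of these last 3 reached the fold used below.

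XLOC_040091 had 8.65 in AL, 29.4 in FA and 14.0 in RF. Its span, of 10 loci, lies in the Cyp4a cluster of fatty acid hydroxylases, where the highest Cyp4a14 locus had 6.01 in AL, 542 in FA and 345 in RF. Both were thus highest in FA. Whether reads from close relatives or overlapping genes were divided among them by the authors' counting was not tested. XLOC_001513, with 9.59 in AL, 9.14 in FA and 10.2 in RF, lay in a span of 29 loci, among them Cfhr2, a complement factor H-related gene, and varied little. XLOC_015543 (21.7 in FA and 16.6 in AL) and XLOC_014289 (16.4 in FA and 11.5 in AL) had 1 span, chr13:68083640-68250545, with opposite numbering, over the RefSeq lncRNA Urml and the transcript AA414992. Neither reached the fold.

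A locus was called different between states when the log2 ratio of FPKM plus 0.1 was at least 2-fold, with an FPKM of 1 or more in either state and a value above 0 in both. This is a rule of size and not a test, and adding 0.1 understates the ratio of low loci. For FA against AL, which asks what a 16 h fast changed, 375 unannotated loci could be called. Of these, 53 (14.1%) were higher in FA, where 2.5% of all 17226 loci were, and 51 (13.6%) were lower in FA, where 3.55% of all loci were. Their median log2 ratio was 0.11, beside -0.02 for all loci. Among unannotated loci at an FPKM of 1 to under 2, 25.7% of 237 were called, beside 5.92% of all loci at that level. At 2 to under 5 the share was 32.7% of 101 beside 4.94%, and at 5 or more it was 27.0% of 37 beside 7.14%. The larger share thus stood at each level, while the number of reads behind each value is unknown, and its part in the shares was not tested. An unannotated locus is listed only where reads were assembled into it, while Ensembl loci are listed without reads as well. In FA, 43 of 4172 unannotated loci were at 0, beside 26909 of 58856 Ensembl loci. The part of this difference in the shares was not tested either.

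**Figure D2:**
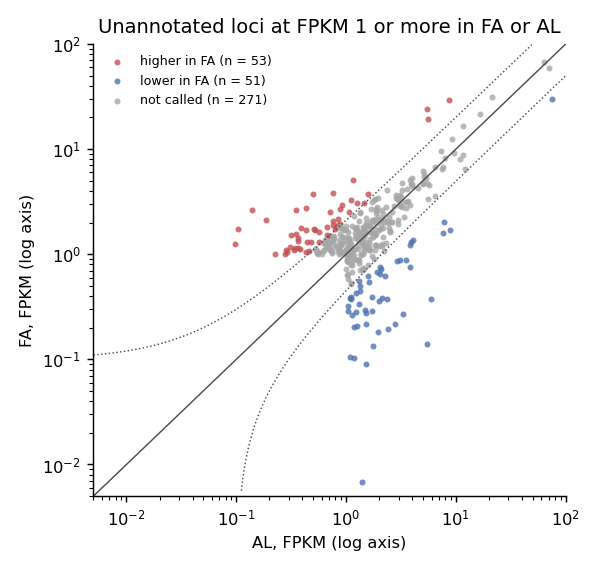
FPKM in FA (vertical, log axis) against FPKM in AL (horizontal, log axis) for the 375 unannotated loci at 1 or more in either state and above 0 in both. The solid line marks equal values and the dotted lines 2-fold after adding 0.1; 53 loci lie above and 51 below.

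**Figure D3:**
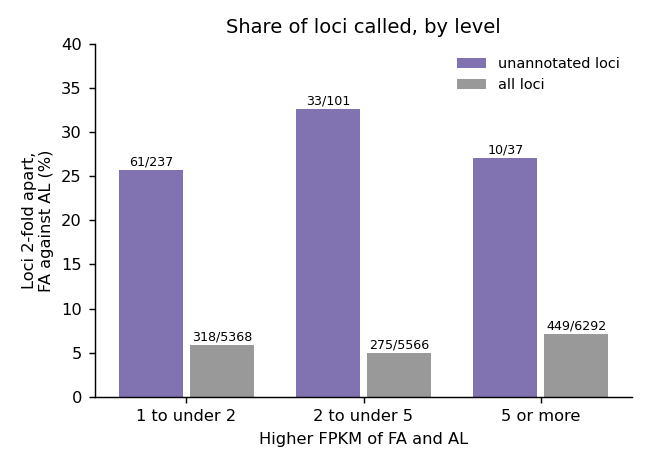
Share of loci at least 2-fold apart between FA and AL (vertical, percent) by the higher FPKM of the states, for unannotated loci and for all loci, with the numbers called and callable above the bars. Unannotated loci had 25.7%, 32.7% and 27.0%, beside 5.92%, 4.94% and 7.14% of all loci.

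Some called loci lay close together. Counting loci within 50000 bases of each other once, the 53 higher loci fell into 37 regions and the 51 lower loci into 39. Spans shared with an Ensembl gene held 10 of the higher and 8 of the lower loci.

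Beside Pck1, the gene of a rate-limiting enzyme of gluconeogenesis, a pair of unannotated loci followed the fast. They had 1 span with opposite numbering, chr2:173140142-173150228, which ends 2820 bases before Pck1 and holds the RefSeq lncRNAs Gm36691 and Gm36749. XLOC_030568 had an FPKM of 1.16 in AL, 5.05 in FA and 1.35 in RF. XLOC_033017 had 0.753 in AL, 3.80 in FA and 0.812 in RF. Both were high in FA alone, with log2 ratios of FA to AL of 2.03 and 2.19. Pck1 had 606 in FA and 132 in AL, a log2 ratio of 2.19, and its FPKM was far above those of the pair in both states.

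XLOC_020882, at chr16:24077963-24090232, had the highest FA level of the called loci with a span of their own and matching values. It had 5.56 in AL, 19.4 in FA and 3.76 in RF, and log2 ratios of 1.78 for FA to AL and -2.33 for RF to FA. The RefSeq start of Gm31583 lies 167 bases inside its edge, and Gm46545 lies in the same span. The nearest Ensembl gene at an FPKM of 1 or more was Bcl6, a transcriptional repressor gene, 89111 bases away, with 3.51 in FA and 4.43 in AL.

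XLOC_008350, at chr11:86810514-86816411, had 24.2 in FA and 5.51 in AL, a log2 ratio of 2.11. Its transcript in the table of RF and FA had 4.04 in RF and 17.9 in FA, which is part of the locus only. It lay 2768 bases from Dhx40, a helicase gene with 11.2 in FA and 8.74 in AL, which was not called. The next loci along the chromosome, XLOC_008354 (0.341 in AL, 1.13 in FA and 0.602 in RF) and XLOC_008355 (0.666 in AL, 1.83 in FA and 1.21 in RF), were also higher in FA. XLOC_008355 was the only one of the 3816 placed unannotated loci to overlap a RefSeq miRNA, Gm51288, and its mature sequences are shown with the seed, bases 2 to 8, in capitals. Whether the assembled transcript is its source was not tested.
mmu-miR-12182-5p (chr11:86852636-86852657): aCAGCGCCagcugccuaauuga
mmu-miR-12182-3p (chr11:86852604-86852625): uAAUUAGGcucuggaucuguga

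The highest ratio of FA to AL was that of XLOC_011324, at chr12:32745822-32771001, over the RefSeq lncRNA Gm40376. It had 0.138 in AL, 2.62 in FA and 3.46 in RF, log2 ratios of 3.51 for FA to AL and 3.90 for RF to AL, so it was as high after refeeding. Its nearest expressed gene, 49334 bases away, was Nampt, which encodes an enzyme of NAD synthesis and had 8.75 in FA and 6.60 in AL. XLOC_036154, at chr3:101511119-101517078, had 0.103 in AL, 1.73 in FA and 0.458 in RF, and its edge lay 27 bases from the start of Gm33162. XLOC_001861, at chr1:171212822-171213822, had 0.188 in AL, 2.13 in FA and 1.46 in RF. It ended 148 bases before Nr1i3, the gene of the nuclear receptor CAR, which had 73.8 in FA and 22.4 in AL. XLOC_013048, at chr12:104398542-104400696, had 0.0981 in AL, 1.24 in FA and 0.578 in RF, 6033 bases from Serpina3n, an acute phase serpin gene with 47.2 in FA and 23.5 in AL. All 4 lay at least 2-fold above AL in RF as well, although XLOC_036154 and XLOC_013048 were then under an FPKM of 1.

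Of the other loci with high ratios, XLOC_015313 at chr13:52180165-52195241 returned most fully. It had 0.429 in AL, 2.73 in FA and 0.325 in RF, over the later annotated gene Gm48199. XLOC_027745, at chr19:17311296-17322231, had 0.350 in AL, 2.64 in FA and 0.972 in RF and lay 3910 bases from Gcnt1, a glycosyltransferase gene. XLOC_057512 had 0.499 in AL, 3.72 in FA and 0.998 in RF, in a span with Fam32a. The plot of the 20 highest and lowest ratios shows that in 8 of these 10 the FA value was the highest of the states, with no RF value set for XLOC_008350.

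The lowest ratio of FA to AL, with 0.1 added to each FPKM, was that of XLOC_059154, at chr9:74515880-74528652. It had 5.50 in AL, 0.140 in FA and 4.21 in RF, so it was low in FA alone, with log2 ratios of -4.54 for FA to AL, 4.16 for RF to FA and -0.38 for RF to AL. Its edge lay 34 bases from the start of the RefSeq lncRNA Gm33459, whose sequence is the first of those above. The nearest coding gene of GENCODE M21, Wdr72, was 232572 bases away. XLOC_029219, at chr2:73967721-73971352 over the RefSeq lncRNA Gm38603, had 1.38 in AL, 0.00684 in FA and 1.05 in RF. It was also low in FA alone. With 0.01 added in place of 0.1 the order of these loci was reversed. The log2 ratio of FA to AL was then -6.37 for XLOC_029219 and -5.20 for XLOC_059154.

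Near Gclc, which encodes the catalytic subunit of glutamate-cysteine ligase, 3 loci over the RefSeq lncRNA Gm34654 were lower in FA, and the 2 with matching values were low in RF too. XLOC_059242, at chr9:77811571-77851921, had 5.90 in AL, 0.374 in FA and 0.260 in RF. XLOC_059241, at chr9:77799815-77811467, had 2.77 in AL, 0.215 in FA and 0.118 in RF. Their log2 ratios of RF to AL were -4.06 and -3.72. XLOC_060814, with the span of XLOC_059242 and the opposite number, had 2.04 in FA and 7.82 in AL, and its transcript in the other table did not match. Gclc itself, 5330 bases from the nearest of these loci, had 26.0 in FA and 38.1 in AL and was not called.

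XLOC_035567 (2.40 in AL, 0.194 in FA and 0.671 in RF) and XLOC_033764 (1.51 in AL, 0.0908 in FA and 0.654 in RF) shared chr3:69649191-69656618, 65367 bases from the nearest expressed gene, Nmd3. XLOC_006607 had 3.31 in AL, 0.270 in FA and 0.652 in RF, in the span of Cfap54, a cilia gene. A Cfap54 locus of that span had 0.0904 in FA and 2.18 in AL, and the other one had 0.265 in FA and 0.140 in AL. In XLOC_035567, XLOC_033764 and XLOC_006607, RF lay between FA and AL.

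Near Nudt7, which encodes a peroxisomal enzyme that cleaves coenzyme A, 3 loci were lower in FA. XLOC_056458, 1754 bases from the gene at chr8:114113207-114131803, had 1.75 in AL, 0.135 in FA and 0.707 in RF. XLOC_056453 and XLOC_056451, of 1 span 42665 bases from it, had log2 ratios of -2.65 and -2.53. Nudt7 had 18.1 in FA and 138 in AL, a log2 ratio of -2.92. Near Gpam, which encodes the acyltransferase that starts glycerolipid synthesis, XLOC_027311 at chr19:55050735-55061957 had 1.97 in AL, 0.181 in FA and 0.682 in RF. Gpam had 16.4 in FA and 71.6 in AL.

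**Figure D4:**
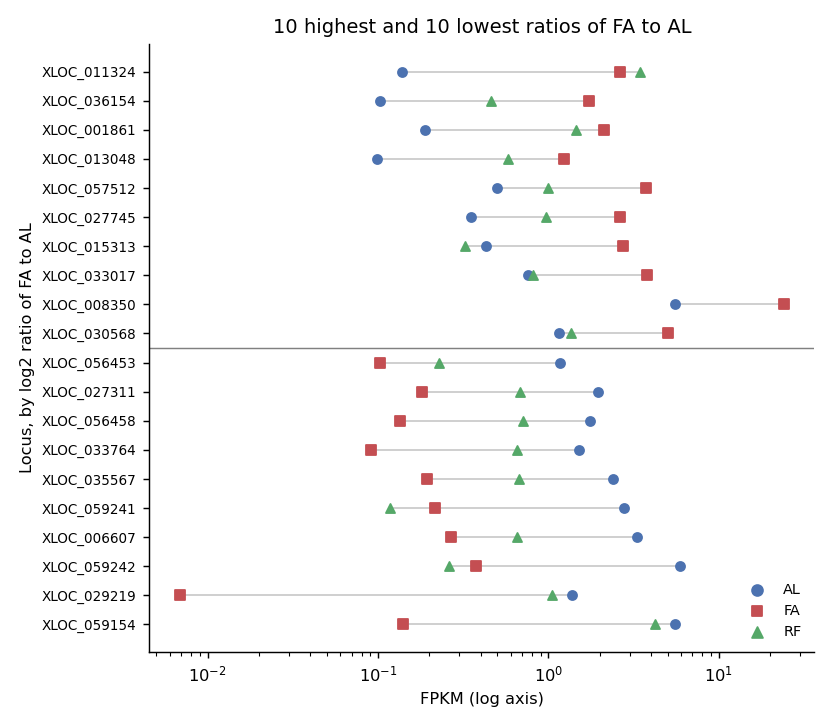
FPKM (log axis) in AL (circles), FA (squares) and RF (triangles) of the unannotated loci with the 10 highest (upper part) and 10 lowest (lower part) log2 ratios of FA to AL; no RF value is drawn for XLOC_008350. XLOC_059154 had 5.50 in AL, 0.140 in FA and 4.21 in RF, while XLOC_059242 and XLOC_059241 were low in both FA and RF.

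Refeeding was compared with the fast over matching loci. Of 58856 Ensembl loci 18362 matched, beside 4070 of 4172 unannotated loci. The shares of all loci set beside RF values here and below therefore come from a reduced set. Of 331 unannotated loci, 32 (9.67%) were higher in RF, where 3.56% of all 8338 matching loci were, and 38 (11.5%) were lower in RF, where 3.11% of all were. Their median log2 ratio was -0.07, beside 0.01 for all loci. XLOC_005978 had 1.54 in FA and was listed at 0 in RF, which gives it no ratio. Against AL, 22 of 307 (7.17%) were higher in RF, where 2.11% of all 8259 loci were, and 29 (9.45%) were lower in RF, where 2.91% of all were. The median log2 ratio of RF to AL was 0.09, beside -0.02 for all loci. The 3 comparisons share libraries of each state.

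Of the loci called between FA and AL, 97 had matching values, and 45 of them (46.4%) were called in the opposite direction between RF and FA. Among all loci called with matching values 42.7% were. By direction, 26 of 49 higher loci (53.1%) returned in this sense, where 47.2% of all loci did, and 19 of 48 lower loci (39.6%), where 39.5% of all did. These shares lay near those of all loci. By the same rule, 6 of the 49 were called above AL in RF and 21 of the 48 below it. Among all loci, 57 of 271 were above it and 143 of 392 below it, so all loci leaned the same way. The comparisons share the FA libraries and are not independent.

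Near Idi1, which encodes isopentenyl diphosphate isomerase of the sterol pathway, XLOC_014801 at chr13:8894774-8897834 had 0.512 in AL, 0.0969 in FA and 1.63 in RF. Its log2 ratio of RF to FA was 3.14, and its RF value was above that in AL. Idi1, 2323 bases away, had 5.31 in FA and 63.1 in AL. XLOC_027119, at chr19:40137117-40149167, had 1.19 in AL, 0.201 in FA and 2.55 in RF, with a log2 ratio of RF to FA of 3.13. It lay 4186 bases from Cyp2c70, which makes muricholic acids in mice and had 25.2 in FA and 211 in AL. XLOC_046768, at chr6:119848237-119850905, had 0.313 in AL, 0.162 in FA and 1.09 in RF, over the RefSeq lncRNA 3110021A11Rik and 70 bases from Erc1, a scaffold protein gene. It was called higher in RF than in FA and than in AL, and was not called between FA and AL.

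Near Selenbp2, a selenium-binding protein gene with 60.5 in FA and 234 in AL, 3 short loci within chr3:94680390-94685293 were low in FA alone. XLOC_035952 had 3.81 in AL, 0.760 in FA and 3.22 in RF, and XLOC_036828 had 2.13 in AL, 0.386 in FA and 1.88 in RF. In a region of Ugt2b genes, glucuronosyltransferases of the liver, XLOC_044045 at chr5:86952972-86956504 had 2.37 in AL, 0.377 in FA and 1.88 in RF. It lay 3617 bases from Gm20121, which had 0.273 in FA and 1.64 in AL.

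Some loci were lower in RF than in either other state. XLOC_042534, at chr5:121699293-121708830 beside Atxn2, an RNA-binding protein gene, had 1.03 in AL, 1.63 in FA and 0.154 in RF, a log2 ratio of RF to FA of -2.77 and of RF to AL of -2.15. XLOC_005626, at chr10:127988275-127990595 and 346 bases from Hsd17b6, a hydroxysteroid dehydrogenase gene, had 0.752 in AL, 1.90 in FA and 0.223 in RF. XLOC_005629, in the span of that gene, had 1.24 in AL, 1.72 in FA and 0.275 in RF. A Hsd17b6 locus of the span with matching values had 5.83 in AL, 8.76 in FA and 4.47 in RF. XLOC_041896, 3050 bases from the sulfotransferase gene Sult1d1, had 0.475 in AL, 1.31 in FA and 0.246 in RF. XLOC_004419, over the lncRNA Gm30906, had 0.936 in AL, 1.46 in FA and 0.317 in RF.

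Calls were then set beside position and neighbours. Without regard to strand, 682 of the 3816 placed loci overlapped a GENCODE M21 gene, 1049 lay within 5000 bases past a gene end, 375 within 2000 bases of a gene start and 1710 elsewhere. Of those past gene ends, 220 were numbered on the strand of the gene. At an FPKM of 1 or more, 15.7% of 115 overlapping loci were called, 31.0% of 58 past gene ends, 24.0% of 25 at gene starts and 44.9% of 98 elsewhere. Loci over RefSeq lncRNAs were called higher in FA in 12 and lower in 22 of 110, and those over RefSeq pseudogenes higher in 0 and lower in 5 of 29. Those over RefSeq protein-coding genes leaned the other way, with 9 higher and 1 lower of 47. Loci over no gene of either source had 20 higher and 17 lower of 102. All placed loci had 43 higher and 43 lower of 296, beside 2.5% higher and 3.55% lower of all loci. These are descriptions of small sets with no test.

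Within 50000 bases of an Ensembl gene at an FPKM of 1 or more lay 211 of the 296 placed loci that could be called. Of the 58 called among them, 23 (39.7%) had a nearest gene that was itself called, and all 23 went the same way as the gene. Of the 153 not called, 5 (3.27%) had a called nearest gene. The 23 loci stood beside 14 genes. Apart from the genes named above these included Sc5d, a sterol desaturase gene with 21.6 in FA and 112 in AL, Paqr9 with 21.9 in FA and 45.0 in AL, and Cyp2c38, a cytochrome P450 gene with 11.5 in FA and 5.52 in AL. Reads of the gene assigned to the locus cannot be told apart from a transcript of its own in these tables. The 3 loci counted beside Cyp2c38 lay over another P450 gene of RefSeq, the protein-coding Cyp2c39. Between RF and FA, 4 of 40 called loci (10%) had a called neighbour with matching values, and 3 went the same way. Of the 157 not called, 6 (3.82%) had one. A neighbour without matching values, such as Pck1, Idi1 or Selenbp2, was counted as not called here. These shares can therefore not be set beside those of FA against AL.

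**Figure D5:**
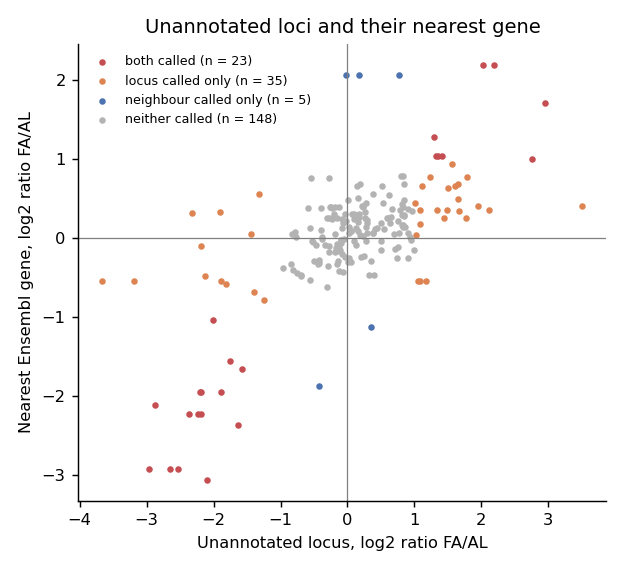
Log2 ratio of FA to AL of the nearest Ensembl gene within 50000 bases (vertical) against that of the unannotated locus (horizontal), for 211 loci. The 23 points where both were called lie at the lower left and upper right, and several loci share a gene.

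The neighbour lists were few in members. For 29 expressed genes of sterol and fatty acid synthesis, 12 unannotated loci had one as nearest gene, and 1 of 1 that could be called was lower in FA. This was XLOC_060815, 3916 bases from the elongase gene Elovl5, with 1.24 in AL, 0.282 in FA and 1.04 in RF. Elovl5 itself had 51.2 in FA and 76.8 in AL and was not called. For gluconeogenesis, amino acid use and fasting signalling, 3 of 5 were higher and 1 lower in FA, with a median log2 ratio of 1.12. Of all loci, 2.5% were higher and 3.55% lower, and the pair at Pck1 has 1 span. Besides the pair at Pck1, the higher one was XLOC_056062, 15589 bases from the alanine aminotransferase gene Gpt2, with 1.05 in FA and 0.428 in AL and no matching value. Gpt2 had 137 in FA and 87.0 in AL and was not called. The lower one was XLOC_015448, over the pseudogene Gm7049 and 49796 bases from Fbp1, the fructose bisphosphatase gene, with 7.59 in AL, 1.58 in FA and 2.69 in RF. Fbp1 had 255 in FA and 273 in AL and was not called, and the coding gene Fbp2 lay nearer, at 21920 bases. Fatty acid oxidation and ketogenesis had 2 nearby loci and clock genes 5, of which 0 could be called. None of 2 loci near glucose and glycogen genes, 1 near a secreted protein gene and 1 near a lncRNA of the study was called between FA and AL. The last, XLOC_001575, lay 16708 bases from the lncRNA C730036E19Rik and had 1.00 in AL, 1.86 in FA and 2.46 in RF. It was called higher in RF than in AL, with a log2 ratio of 1.21. C730036E19Rik had 9.36 in AL, 10.5 in FA and 25.9 in RF.

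Runs of called loci were also seen away from called genes. They were picked after their values were seen. On chromosome 17, 4 loci within 81305655 to 81384258, the last overlapping the sodium-calcium exchanger gene Slc8a1, had 0.280 to 0.920 in AL, 1.01 to 2.97 in FA and 0.402 to 1.15 in RF, and all 4 were called back in RF. On chromosome X, 3 loci within 150484252 to 150519070 had 0.463 to 1.07 in AL, 1.07 to 2.53 in FA and 0.664 to 1.63 in RF. All 3 lay over Apex2, a DNA repair endonuclease gene, as RefSeq draws it, and the first also over Tmem29. The Ensembl gene Apex2, 449 bases from the closest of them, was their nearest gene and had a log2 ratio of -0.55. On chromosome 10, XLOC_006866 (4.08 in AL, 1.36 in FA and 0.948 in RF) and XLOC_006868 (2.06 in AL, 0.726 in FA and 0.410 in RF), over the RefSeq lncRNA Gm36041, were lower in FA and did not return. XLOC_058733, over the RefSeq gene BC049987, had 8.91 in AL, 1.71 in FA and 5.58 in RF.

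Loci numbered on opposite strands of 1 span moved together where both were called. Of 149 such spans, 22 had loci at an FPKM of 1 or more on both numbers. In 4 both were called between FA and AL, each time the same way. These were the spans beside Pck1 and Gclc, the one on chromosome 3 near Nmd3, and one on chromosome 7 over Gm29919, with XLOC_052895 at 2.04 in AL, 0.644 in FA and 0.142 in RF. Between RF and FA, XLOC_042534 and XLOC_044621, which share chr5:121699293-121708830, were both called lower in RF, with log2 ratios of -2.77 and -1.30. With strand given no weight, the loci of such a pair cannot be told apart from 1 transcript, and they should not be read as independent.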

How the data were processed

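Ribosomal RNA was depleted and strand-specific libraries were sequenced from 12 livers. Per the labels and the study's methods, the authors removed ribosomal reads with Bowtie2 2.2.9, aligned the rest to GRCm38 with STAR 2.6.0c, and assembled, merged and compared transcripts with Cufflinks 2.2.1 (Cuffdiff), with Ensembl release 90 genes. The deposited values are FPKM, pooled by the authors into 1 value per group and locus. Single libraries have 0 columns, so depth, SD and tests could not be had, and the precision of each value is unknown. The authors' comparison columns (log2 ratio, test statistic, p and q) were not used.

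Members were loci with no Ensembl identifier and a span of 1000 bases or more. Log2 ratios used a pseudocount of 0.1, a floor of FPKM 1 and a 2-fold call. RF was used where FA values agreed within 10% between the tables. Starts were read as counted from 0, since the start plus 1 was the gene start in 99.9% of single-gene loci at 0, and 1 was added. Positions came from GENCODE M21 and RefSeq on GRCm38. Named loci were the 10 with the highest mean FPKM, the 10 highest and 10 lowest called ratios of FA to AL, the 8 highest and 8 lowest of RF to FA, and up to 4 called per neighbour list within 50000 bases. The loci and lists were chosen with earlier results of these data known. Calling and placing were tested on simulated data. Alternatives changed the floor, fold, pseudocount, centring, length, overlap, agreement, windows and strand. Python 3.11.15 with pandas 2.3.3, numpy 2.4.6 and matplotlib 3.10.9 was used.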

Additional observations from a re-analysis of the deposited data

How the results depend on the processing

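Values are given as loci higher and then lower in the first state. With a floor of 0.5, FA against AL had 156 and 165, RF against FA 104 and 128, RF against AL 75 and 85, and 120 returned. With a floor of 2 these were 20 and 23, 10 and 12, 6 and 11, and 17 returned. At 1.5-fold, 103 were higher in FA against AL, RF against FA had 63 and 77, RF against AL 51 and 49, and 93 returned. At 3-fold these were 24 and 32, 17 and 18, 4 and 17, and 20 returned. With a pseudocount of 1, FA against AL had 16 and 25, RF against FA 11 and 10, RF against AL 3 and 10, and 15 returned. Members overlapping no Ensembl gene had 30 lower in FA against AL, 23 lower in RF against FA and 13 lower in RF against AL. These follow from fewer or more loci passing each rule. In each of these settings the share of unannotated loci called exceeded that of all loci, the smallest difference being 4.23% beside 2.09% for RF against AL with a pseudocount of 1. Loci past gene ends numbered 487 within 10000 bases, 23 within 2000 and 1049 without strand, against 220. Without strand 375 lay at gene starts and 1710 elsewhere, against 154 and 2760. With same-strand neighbours only, 11 of 14 loci with a called gene went its way in FA against AL and 3 went the other way, while 0 did so in RF against FA, and within 10000 bases 1 did in RF against FA.

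Leaving out members in the span of an Ensembl gene, chosen after seeing the data, kept 86 of the 104 calls in FA against AL. The other 87 summary values and 523 values of named loci stayed within 1.5 times (medians within 0.1) or kept their call, 43 named values lost it, and 0 named values changed sign. The median log2 ratio of RF to FA was 0.02 with a floor of 2, against -0.07, so its sign depends on the floor. No paired analysis was possible because the tables hold 1 pooled value per group. For the same reason no library could be left out, and depth cannot be weighed.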
